A study of Mus musculus with 2 samples.

Results

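Of 26232 distinct ATAC-seq peaks found in mouse cardiac progenitor cells (CPCs), 610 were narrow peaks at the promoters of protein coding genes. They were selected on 3 properties of the deposited list. The midpoint lay at most 1000 bp from the assigned transcription start site (TSS), the assigned transcript carried a RefSeq accession of a coding mRNA, and the measured width was under 800 bp. The 610 peaks belonged to 601 genes and made up 5.38% of the 11331 coding promoter peaks. Width and distance therefore describe how the peaks were chosen. They were not tested between narrow and other peaks, save for the side of the TSS on which the midpoint lay. The share of peaks under 800 bp was compared between the X chromosome and the autosomes. CPCs are the cells from which heart muscle, smooth muscle and endothelium of the heart arise. Here they were differentiated for 5 days from E14 Tg(Nkx2-5-EmGFP) embryonic stem cells, which carry an EmGFP reporter of Nkx2-5, an early cardiac transcription factor. The methods describe a directed protocol with BMP4, Activin A, VEGF, bFGF and FGF10, and hanging drops followed by a sort on EmGFP. Cells of the directed protocol were also sorted on EmGFP, for RNA extraction. Which protocol gave the ATAC-seq cells is not stated there, nor is a sort of these cells, so other cell types of the culture may be present. The labels give the strain as C57BL/6 and name no knockdown or other treatment for these cells. The deposited list is named as control, without saying of what kind. The series also names Isl1 knockdown, which was not analysed here. The group held 2 replicates, which the methods call independent differentiations, represented by 1 list of peaks shared by both, so no value could be given per replicate.

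In ATAC-seq the Tn5 transposase cuts open DNA, and a peak spans the stretch in which cuts accumulate. Most mammalian promoters lie in CpG islands, stretches that escape DNA methylation, keep many CpG dinucleotides and hold a wide region poor in nucleosomes. The other promoters have few CpG dinucleotides, are often used in few cell types, and may carry a TATA box, which positions RNA polymerase II a short way downstream. The sequences below show both kinds among the narrow peaks.

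Stretches of 100 bp directly upstream of the TSS were read from mm9, 5′ to 3′ on the strand of the gene, with each CpG in capitals, to show the range of CpG content. Hbs1l (a translation factor for stalled ribosomes), Rpf2 (ribosome assembly), Synpo2 (an actin-binding protein of muscle) and Pex5l (a brain protein that binds peroxisomal targeting signals) held 14, 12, 8 and 0 CpG in these 100 bp. For Mef2c, a transcription factor required for heart development, the stretch ends at the TSS from which the deposited distance was counted, and it held 2 CpG.
Hbs1l, chr10:21015685-21015784, plus strand: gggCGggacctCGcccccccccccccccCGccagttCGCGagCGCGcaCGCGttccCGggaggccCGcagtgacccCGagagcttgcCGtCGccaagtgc
Rpf2, chr10:39966786-39966885, minus strand: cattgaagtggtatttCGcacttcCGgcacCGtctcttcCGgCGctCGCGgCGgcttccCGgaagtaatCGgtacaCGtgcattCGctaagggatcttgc
Synpo2, chr3:122939068-122939167, minus strand: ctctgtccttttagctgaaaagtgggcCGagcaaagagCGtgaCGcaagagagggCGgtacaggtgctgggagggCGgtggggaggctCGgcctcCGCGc
Mef2c, chr13:83662556-83662655, plus strand: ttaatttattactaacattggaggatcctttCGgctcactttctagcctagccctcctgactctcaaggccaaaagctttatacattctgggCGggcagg
Pex5l, chr3:32981958-32982057, minus strand: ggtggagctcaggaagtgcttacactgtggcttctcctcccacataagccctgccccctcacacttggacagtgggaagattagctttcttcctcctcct

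The next stretches, also the 100 bp upstream of the TSS, belong to 4 of the 8 narrow peaks with a TATA box, whose letters are in capitals. Prg2 encodes a granule protein of eosinophils, Abca1 a cholesterol transporter, Rnd3 a small GTPase and Ccdc113 a protein of cilia.
Prg2, chr2:84820518-84820617, plus strand: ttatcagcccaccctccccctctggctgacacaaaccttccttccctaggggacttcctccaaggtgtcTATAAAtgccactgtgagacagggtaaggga
Abca1, chr4:53172768-53172867, minus strand: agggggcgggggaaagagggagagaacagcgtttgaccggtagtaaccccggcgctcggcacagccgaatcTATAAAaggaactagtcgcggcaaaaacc
Rnd3, chr2:51004632-51004731, minus strand: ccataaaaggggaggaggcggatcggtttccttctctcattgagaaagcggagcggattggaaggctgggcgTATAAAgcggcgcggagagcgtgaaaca
Ccdc113, chr8:98057900-98057999, plus strand: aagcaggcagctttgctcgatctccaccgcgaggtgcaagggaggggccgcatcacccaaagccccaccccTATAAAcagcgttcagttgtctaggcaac

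The last set shows the RFX motif GTTGCCATG in capitals, one of the motifs whose share differed between narrow and wider promoter peaks. RFX factors are known regulators of genes for cilia. The stretches were written on the strand that holds the motif and end before the first exonic base. Dync2li1 is a subunit of the dynein motor that moves cargo within cilia. Lrriq1, Nsun7 and 4932443I19Rik are named by their symbols only.
Dync2li1, chr17:85025768-85025826, plus strand: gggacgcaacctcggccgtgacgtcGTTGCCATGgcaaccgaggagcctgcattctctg
Lrriq1, chr10:102698957-102699000, minus strand: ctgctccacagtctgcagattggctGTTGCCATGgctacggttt
Nsun7, chr5:66651057-66651115, plus strand: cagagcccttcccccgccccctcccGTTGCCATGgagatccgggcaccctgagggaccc
4932443I19Rik, chr8:13705842-13705888, minus strand: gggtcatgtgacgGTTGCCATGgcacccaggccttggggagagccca

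The width of the narrow peaks ran from 404 to 799 bp, with a median of 725 bp and quartiles at 654 and 764 bp. Most lay near the limit, since 365 of the 610 were 700 bp or wider and 78 were under 600 bp. The remaining 10721 coding promoter peaks had a median width of 1360 bp. At the limit the choice was arbitrary. Among the peaks at 799 bp were those of Tcf7l2, a transcription factor of Wnt signalling, Ccdc110 and Dgkk, while Usp40, Mboat1 and Edn1, the gene of the vasoconstrictor endothelin, stood at 800 bp and were left out. The narrowest peaks belonged to Ankrd34c (404 bp), Zfand6 (410 bp), Hs6st2 (426 bp), 4930430F08Rik (428 bp), Cntnap2 (458 bp), Mum1l1 (474 bp), Ahcyl2 (478 bp), Cfap53 (479 bp), Cers3 (485 bp) and BC016579 (486 bp), with Etnppl tied at 486 bp. These genes share no single function. Hs6st2 modifies heparan sulfate, Cntnap2 is a neuronal adhesion protein, Cers3 makes ceramides of the skin and Cfap53 is a protein of motile cilia.

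The label of the group was checked against a second annotation. In GENCODE gene models on the same genome, 583 of the 610 midpoints (95.6%, 95% Wilson confidence interval 93.6 to 96.9) lay within 1 kb of the TSS of a protein coding gene. This share was lower than the 97.9% of the other coding promoter peaks, by 2.34 points (Newcombe interval of narrow minus other -4.29 to -0.940). The midpoints of 37.0% of the narrow peaks fell in an untranslated region, 27.5% between genes, 19.2% in an intron and 13.1% in a coding exon. A narrow peak covered an annotated TSS of its gene in 519 of 605 cases with a matched gene (85.8%), against 97.1% of the wider peaks. A shorter interval covers fewer positions, so this comparison follows in part from the choice by width.

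Narrow peaks sat close to the start site. The midpoint was within 100 bp of the assigned TSS for 320 of 610 narrow peaks (52.5%) and for 41.0% of the others. The median position was 36.0 bp downstream of the TSS in narrow and 65.0 bp downstream in other peaks. Between 100 and 500 bp downstream lay 26.7% of the narrow peaks and 37.4% of the others. Among narrow peaks those in CpG-rich sequence were closer to the TSS than the rest, with 194 of 330 (58.8%) and 126 of 280 within 100 bp. Because distance was part of the selection, these shares are a description.

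**Figure D1:**
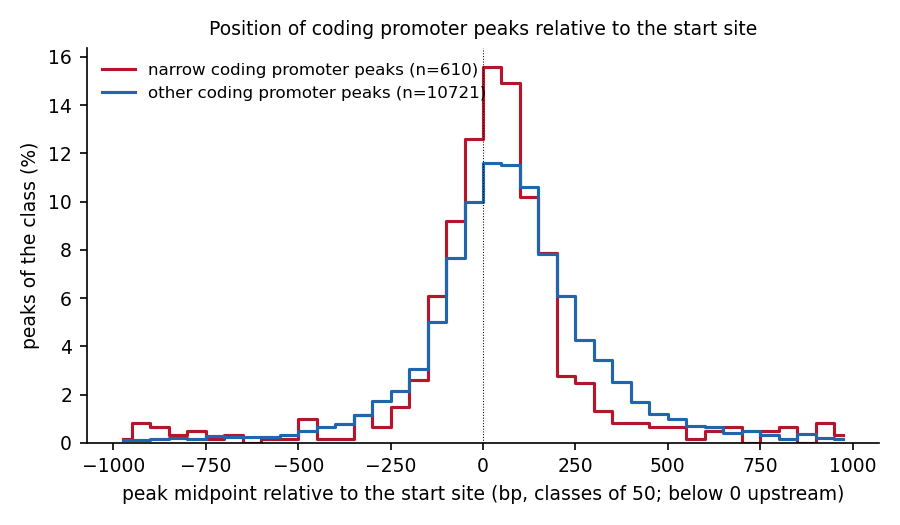
Share of coding promoter peaks (vertical axis, percent of the class) by position of the peak midpoint relative to the assigned start site (horizontal axis, bp, classes of 50), for narrow peaks in red and the other coding promoter peaks in blue. Both classes have their highest share just downstream of the start site, and the narrow peaks are more concentrated, with 52.5% against 41.0% within 100 bp.

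Narrow promoter peaks lay in sequence with fewer CpG than wider ones. A window of 300 bp at the midpoint was called CpG-rich at a GC content of at least 50% and a ratio of observed to expected CpG of at least 0.6. It was CpG-rich for 330 of 610 narrow peaks (54.1%, Wilson interval 50.1 to 58.0) and for 8669 of 10721 other coding promoter peaks (80.9%). The difference was -26.8 points (Newcombe 95% interval -30.8 to -22.8). Of the 3436 peaks under 800 bp that lay more than 10 kb from their assigned TSS, 3.96% were CpG-rich. The narrow promoter peaks thus stood between the wider promoter peaks and distal peaks of the same width limit. All such intervals cover counting error over the peaks of this list and not the spread between differentiations.

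The same order held for the surroundings. In the 2 kb around the midpoint the median number of CpG was 50.0 for narrow promoter peaks (quartiles 34.0 and 68.0), 92.0 for the others and 22.0 for narrow distal peaks. The median GC content of the 300 bp window was 60.0%, 67.0% and 52.0% in the same order. The median ratio of observed to expected CpG was 0.64, 0.82 and 0.20. Narrow peaks had fewer CpG around them within each sequence class as well. Those with a CpG-rich window had a median of 63.0 CpG in 2 kb against 99.0 for wider CpG-rich peaks, and the rest had 33.0 against 58.0.

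**Figure D2:**
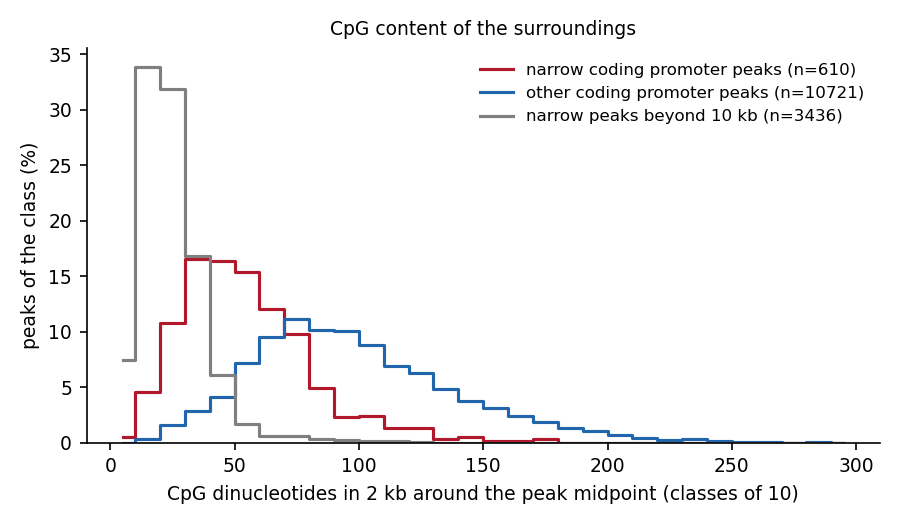
Number of CpG dinucleotides in the 2 kb around the peak midpoint (horizontal axis, classes of 10) against the percent of peaks in each class (vertical axis), for narrow coding promoter peaks (red), other coding promoter peaks (blue) and narrow peaks beyond 10 kb of a start site (grey). The red curve lies between the others, with medians of 50.0, 92.0 and 22.0 CpG.

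Across all widths the relation was not a straight line. The CpG-rich share was 41.0% under 600 bp, 56.9% from 600 bp to under 700 bp and 55.6% from 700 bp to under 800 bp. It rose to 71.2% at 800 bp to under 1000 bp and to 86.4% at 1300 bp to under 1700 bp, then was 69.0% at 2500 bp and over. The narrow classes all had overlapping Wilson intervals. These were 30.8 to 52.1 under 600 bp and 49.3 to 64.2 from 600 bp to under 700 bp. The class from 700 bp to under 800 bp ran from 50.5 to 60.6. Spearman's rho between width and the number of CpG in 2 kb was 0.60 over the 11331 coding promoter peaks and 0.11 over the 610 narrow ones, which span a small range of widths. These correlations are across peaks, which are not replicates.

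**Figure D3:**
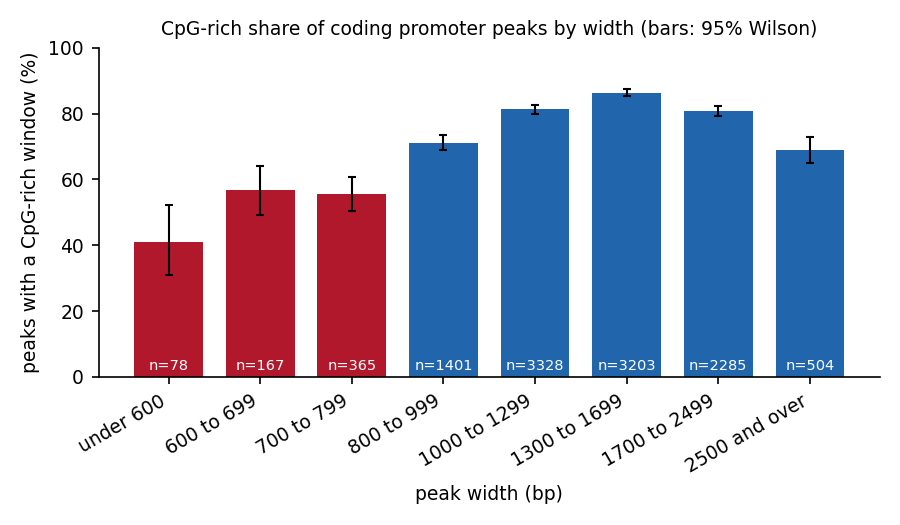
Percent of coding promoter peaks whose 300 bp window was CpG-rich (vertical axis, from 0) by peak width in bp (horizontal axis), with 95% Wilson intervals as error bars, the number of peaks in each bar, narrow classes in red and wider classes in blue. All 3 narrow classes lie below every wider class, with 41.0% under 600 bp against 86.4% at 1300 bp to under 1700 bp.

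The extremes show how mixed the narrow peaks were. The highest ratios of observed to expected CpG belonged to Pramef8 (1.32), Isoc1 (1.22), Hbs1l (1.19), Ppwd1 (1.19) and Rpf2 (1.18). Ppwd1 is a peptidyl-prolyl isomerase of the spliceosome. Hbs1l, Rpf2 and Ppwd1 act in steps of gene expression common to all cells. Pramef8 and Isoc1 are named by their symbols only, and a link between CpG ratio and gene function was not tested. The midpoints of Hbs1l, Rpf2 and Ppwd1 lay 47, 51 and 26 bp downstream of the TSS. Those of Pramef8 and Isoc1 lay 360 and 124 bp downstream. The lowest ratios belonged to Prg2, Mmp16 and Defb10 (0.00 each), Gm8909 (0.05) and Pex5l (0.05). Prg2, the matrix metalloproteinase Mmp16 and the defensin Defb10 are genes of restricted expression. In the 2 kb around them were 14, 7 and 6 CpG. Of the Gm8909 window, 88.9% of the 32-mers tested occurred more than once in the genome, so reads there may have come from a near-identical copy. The same share was 48.1% for Hbs1l and 40.7% for Defb10.

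A TATA box, TATAAA or TATATA at 40 to 20 bp before the nearest annotated TSS, was found for 8 of 605 narrow peaks (1.32%) and 107 of 10637 others (1.01%). The difference of 0.316 points had an interval of -0.367 to 1.59 and changed sign with the width limit. The 8 genes were Prg2, Abca1, Rnd3, Ccdc113, Agtr1b (an angiotensin II receptor), Ereg (the growth factor epiregulin), Tdrd7 and Gm8909. The TATA boxes were not all in CpG-poor sequence. The windows of Abca1, Rnd3 and Ereg were CpG-rich, with ratios of 0.89, 0.82 and 0.66, while Prg2 had no CpG in its window.

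Motifs were searched as fixed letters on both strands in the 300 bp windows, and the intervals were widened for 16 motifs (level 99.69%). The motifs were chosen with earlier results of these data known, which the widening does not cover. No motif contained the letters of another, with 1 exception. The CTCF letters CCANNAGGG, in which N is any base, hold CCAAT where NN is AT. The shares of 3 motifs differed between narrow and other coding promoter peaks. With the letters of each motif in reverse order, used as a control for base composition, 4 of the 16 differed, namely the GC box, CCAAT, LIM homeodomain and TEAD letters (TEAD 11.5% and 6.88%, 1.22 to 9.01). The GC box GGGCGG, the site of Sp factors, was in 282 of 610 narrow windows (46.2%) and 68.1% of the others, a difference of -21.9 points (-27.9 to -15.8). It was less frequent both within CpG-rich windows (61.5% against 74.2%) and within the rest (28.2% against 42.5%). The same letters in reverse order differed as much (-22.4 points, -28.4 to -16.3). Reversed, they read GGCGGG, and the run GGGCGGG holds both, so these letters are not a separate control for the GC box. The part of base composition in the result was not tested.

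The GATA motif AGATAA is bound by GATA factors, which include the cardiac regulator Gata4. It occurred in 45 of 610 narrow windows (7.38%) and 2.98% of the others, 4.40 points apart (1.79 to 8.19). Within CpG-rich windows the shares were 4.85% and 1.96% (difference 2.89, 0.363 to 7.71). Within the other windows they were 10.4% and 7.26%, and the interval included 0 (difference 3.10, -1.54 to 9.90). The letters in reverse order were in 4.26% and 3.14%, with an interval that included 0 (-0.798 to 4.28). Narrow peaks beyond 10 kb held the motif more often, in 16.9%, 9.53 points above the narrow promoter peaks (narrow promoter minus distal -12.8 to -5.36). Carriers among the narrow promoter peaks included the promoters of Cacna1d, a calcium channel of pacemaker cells, the guidance factor Sema3a and the actin regulator Shroom3, named here after their values were seen.

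The RFX motif GTTGCCATG was rare. It occurred in 11 of 610 narrow windows (1.80%) and in 68 of 10721 others (0.634%), 1.17 points apart (0.0937 to 3.58). All 11 were in windows that were not CpG-rich, 3.93% of these against 0.780% of the wider peaks of that kind (difference 3.15, 0.744 to 8.21). It was in 0 of 330 CpG-rich narrow windows, which allows a share of up to 0.909%, and in 52 of 8669 wider CpG-rich ones. Without windows that held any multi-copy 32-mer, the shares were 1.68% and 0.688%, and the interval included 0 (-0.0754 to 3.58). The reversed letters were in 0 of 610 narrow windows and in 3 of the others. The 11 genes were Dync2li1, Cfap53, Ccdc67, Catip, Lrriq1, Nsun7, Glipr1l1, Aldoart2, Tmem29, Gm5936 and 4932443I19Rik. Dync2li1, Cfap53 and Ccdc67 act in cilia or in making their basal bodies. The functions of the other carriers were not examined. Whether cilia genes were more frequent among carriers than among other peaks was not tested. In 7 of the 10 genes whose motif was placed, all but Cfap53, its centre lay within 100 bp of the nearest annotated TSS. It was 39 bp upstream in Dync2li1, 44 bp in Lrriq1 and 65 bp in Nsun7, the stretches printed above.

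The shares of the other motifs did not differ beyond their widened intervals. The closest was the CCAAT box CCAAT, in 32.1% and 26.9% (difference 5.25, -0.205 to 11.2). The ETS motif CCGGAAG was in 15.1% and 14.5% (0.568, -3.36 to 5.44) and the E-box CACGTG in 7.38% and 7.36% (0.0177, -2.66 to 3.85). The LIM homeodomain motif CTAATG, the kind of site that Isl1 binds, was in 3.28% and 2.58% (0.695, -0.938 to 3.60). The MEF2 motif CTATTTTTA was in 1 narrow window. For NRF1 (GCATGCGC), CRE (TGACGTCA), YY1 (AGATGGCGG), AP-1 (TGANTCA), CTCF (CCANNAGGG), the octamer (ATGCAAAT), TEAD (GGAATG) and T-box (AGGTGTGA) the shares in narrow windows were 3.93%, 2.95%, 2.62%, 4.10%, 7.54%, 1.48%, 11.5% and 0.984%. In the other coding promoter windows they were 3.31%, 2.28%, 2.43%, 2.83%, 6.56%, 0.756%, 8.95% and 0.504%. Against narrow peaks beyond 10 kb, the ETS, NRF1, CRE, YY1, GC box, E-box and RFX letters were more frequent in narrow promoter peaks, and the GATA, LIM homeodomain, AP-1 and TEAD letters less frequent, each beyond its widened interval.

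**Figure D4:**
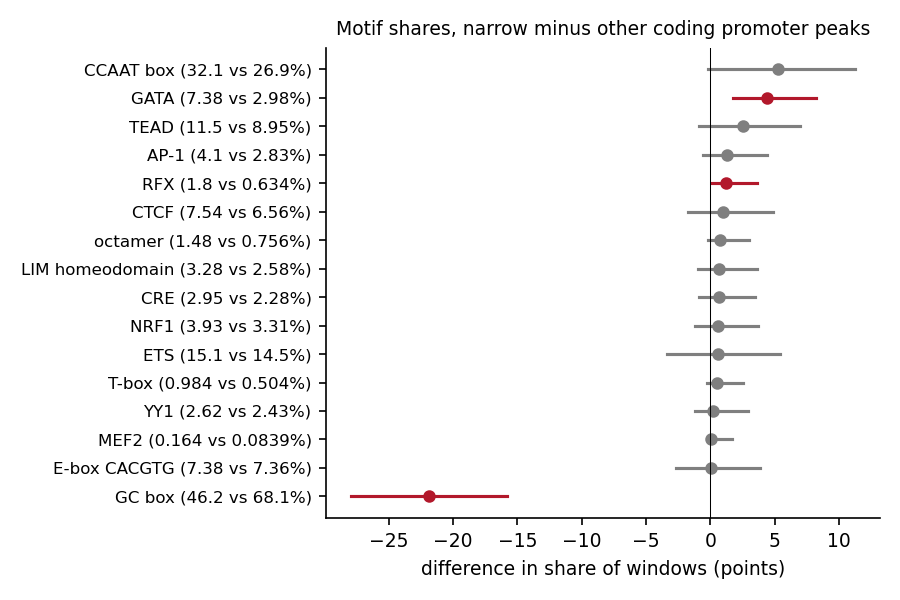
Difference in the share of 300 bp windows that hold each motif, narrow minus other coding promoter peaks (horizontal axis, percentage points), with the 2 shares beside each motif name and lines for Newcombe intervals widened for 16 motifs. Intervals that exclude 0 are red, namely the GC box at -21.9 points, GATA at 4.40 and RFX at 1.17.

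Narrow promoter peaks were more frequent on the X chromosome. There, 58 of 358 coding promoter peaks were under 800 bp (16.2%, Wilson interval 12.7 to 20.4), against 552 of 10973 on the autosomes (5.03%). The difference was 11.2 points (Newcombe interval 7.69 to 15.4). Among autosomes the share ran from 2.85% on chromosome 4 to 8.97% on chromosome 3. The median width of all coding promoter peaks was 1088 bp on the X chromosome and 1341 bp on the autosomes. The difference was found in both sequence classes, with 9.55 points among CpG-rich peaks (13.0% and 3.40%, 5.90 to 14.3) and 12.0 among the rest (23.4% and 11.4%, 4.94 to 20.8).

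Away from promoters the X chromosome also had narrower peaks. Of peaks beyond 10 kb, 48.4% on the X chromosome and 37.1% on the autosomes were under 800 bp (difference 11.3, 3.63 to 19.1). Their median widths were 805 and 883 bp. The list held 5 peaks on the Y chromosome, none at a coding promoter, and the number of X copies in these cells was not measured.

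The genes behind the 58 X-linked peaks were of many kinds. They included Kdm5c (674 bp), a histone demethylase, Thoc2 (586 bp), a subunit of the mRNA export complex, Ogt (798 bp), the enzyme that adds GlcNAc to nuclear proteins, and Dmd (730 bp), the dystrophin gene. Wbp5 had a pair of narrow promoter peaks, 583 bp wide at 28 bp upstream of the TSS and 627 bp wide at 753 bp downstream. Armcx2 (730 bp), Armcx6 (724 bp) and Armcx3 (796 bp), neighbouring genes of one family, were all narrow. Of the 6 Armcx genes with a coding promoter peak, 3 had no wider one. These X-linked genes were picked after their values were seen.

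**Figure D5:**
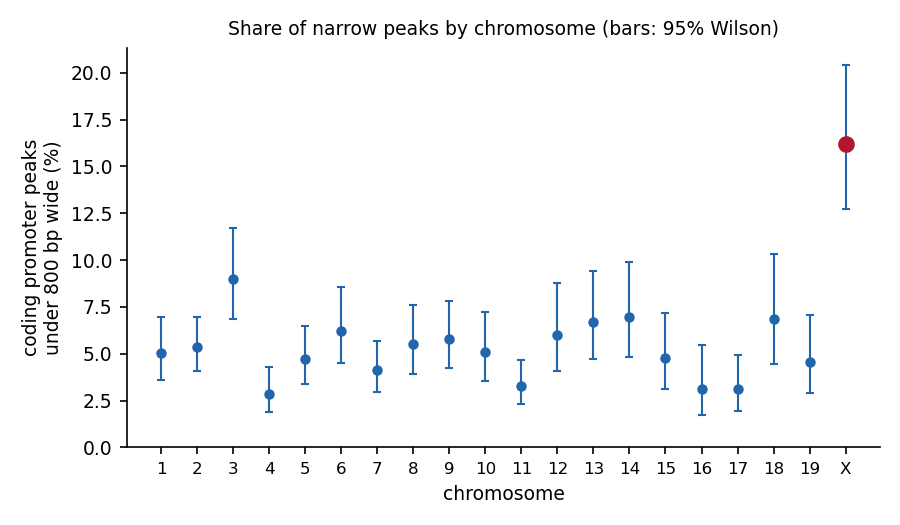
Percent of coding promoter peaks under 800 bp wide (vertical axis, from 0) on each autosome and on the X chromosome (horizontal axis), with 95% Wilson intervals as error bars. The X chromosome, in red, is at 16.2%, while the autosomes run from 2.85% to 8.97%.

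Most narrow peaks were the only promoter peak of their gene, and some shared their gene with a wider one, near or far. For 539 of the 610 no other coding promoter peak was assigned to the gene. The remaining 71 (11.6%) shared their gene with another, against 5.00% of wider peaks, a difference of 6.64 points (4.29 to 9.46). In 55 of the 71 cases the gene also had a promoter peak of at least 800 bp, whose median width was 1119 bp, and in 16 cases it had narrow ones alone. The narrow peaks whose gene had another promoter peak were CpG-rich in 32.4% (Wilson interval 22.7 to 43.9) and the sole ones in 57.0% (52.7 to 61.1). Taking only the widest promoter peak of each gene turned the difference to -1.24 points, because that setting drops the narrower partner. Among peaks that cover an annotated TSS of the gene it was 3.55 points (1.49 to 6.22).

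Close neighbours were counted separately. A peak within 1 kb of another was found for 38 narrow peaks (6.23%) and 2.68% of wider ones, 3.55 points apart (1.86 to 5.78). With midpoints within 500 bp of the TSS the difference was 1.65 points (0.271 to 3.64). In 30 of the 38 cases the neighbour was itself a coding promoter peak, and the median width of the neighbours was 870 bp. The smallest gap was 3 bp, between a pair of narrow peaks at M1ap (620 and 563 bp), a gene of male meiosis. At Snap25, which encodes a fusion protein of synaptic vesicles, a peak of 792 bp lay 29 bp from one of 804 bp. Whether such pairs are 1 open region that the peak caller split was not tested.

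Divergent promoters were less frequent among narrow peaks than among all wider ones. Protein coding TSSs on both strands lay within 1 kb of the midpoint for 24 narrow peaks (3.93%) and for 9.65% of wider ones. The difference was -5.72 points (-7.12 to -3.79), and -3.02 (-4.51 to -1.05) against peaks of 800 to 1300 bp alone. Peaks from 800 bp to under 1000 bp had a share of 4.28%, close to that of the narrow peaks, and the share was 13.1% from 1700 bp to under 2500 bp. The gene had a peak elsewhere for 35.9% of narrow and 39.8% of wider peaks (difference -3.88), with an interval that just included 0 (-7.70 to 0.112). With only the widest promoter peak of each gene it excluded 0 (-6.68, -10.6 to -2.54). Against peaks of 800 to 1300 bp the difference was 0.165 (-3.79 to 4.28). The midpoints of narrow and wider peaks lay downstream of the TSS in 61.6% and 64.9% of cases (difference -3.29, -7.31 to 0.593). Windows made mostly of multi-copy sequence were more frequent, 24 (3.93%) against 1.60% of wider peaks (difference 2.33, 1.03 to 4.20), and still more frequent in narrow distal peaks at 9.34%. The part of read mapping in these peaks was not tested.

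The genes were then grouped by function, counting a gene as narrow where its widest coding promoter peak was under 800 bp. Over all 11015 genes with a coding promoter peak, 547 (4.97%) had no promoter peak of 800 bp or more, and the median of the widest peak per gene was 1339 bp. Among 13 cardiac regulators with a promoter peak 1 was narrow (7.69%), near the share over all genes, and the median was 1298 bp. That gene was Mef2c, whose peak of 593 bp (chr13:83662376-83662968) was centred 16 bp downstream of the TSS in an intron of the GENCODE gene. It was CpG-rich with a ratio of 0.91, and Mef2c had 3 further peaks away from the promoter. Tead1, a transcription factor of the Hippo pathway, had a narrow peak of 766 bp at 344 bp downstream of its assigned TSS (chr7:119902860-119903625), a wide one of 2013 bp at another TSS (chr7:119821832-119823844), and 14 peaks in all, the most of any gene in this group. Next, with 9 peaks each, were Ank3, Abr, Ank2 and Cntnap2. The narrow promoter peaks of the ankyrin gene Ank3 (591 bp) and the GTPase regulator Abr (653 bp) were not CpG-rich, and their widest promoter peaks measured 2484 and 2082 bp.

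None of 6 sarcomere genes and none of 10 genes for ion channels and calcium handling had only narrow promoter peaks, with medians of 1436 and 1868 bp. Cacna1c, the main calcium channel of heart muscle, had a narrow peak of 652 bp at 307 bp upstream of the TSS and a wider one of 1127 bp at another TSS (chr6:119058654-119059780). Of 9 smooth muscle genes 1 was narrow, Synpo2, at 670 bp and 7 bp upstream of the TSS. The lists of 12 signalling genes, 17 SWI/SNF subunits, 7 blood and endothelial genes, 10 pluripotency genes, 12 housekeeping genes and 3 skeletal muscle genes had none. Of 11 neural genes 1 was narrow, the synaptic vesicle gene Syp (764 bp), and of 4 germline genes 1, the meiotic gene Sycp3 (795 bp). No gene of the immune or liver lists had a coding promoter peak. With 4.97% of all genes narrow, a count of 0 or 1 in lists of this size says nothing particular about them.

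Some narrow promoters outside these lists belonged to genes known from the heart, its mesoderm or skeletal muscle. These were named after their values were seen. Rbm24, an RNA-binding protein of heart muscle splicing, had 1 peak of 729 bp with a CpG-rich window and 119 CpG in 2 kb. Osr1, a zinc finger factor of the intermediate and cardiac mesoderm, had a peak of 678 bp at 267 bp downstream. Apela encodes a peptide that binds the apelin receptor and had a peak of 708 bp at 18 bp downstream with a low CpG ratio of 0.39. Ryr1, the calcium release channel of skeletal muscle, had a peak of 703 bp. These peaks differed in CpG content and shared only their position near the TSS.

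Among gene families, narrow promoters were found for 10 of 52 genes of mitochondrial ribosomal proteins (19.2%, median of the widest peak 1107 bp). The 10 were Mrpl3 (659 bp), Mrpl9 (743 bp), Mrpl11 (725 bp), Mrpl16 (708 bp), Mrpl33 (653 bp), Mrpl35 (683 bp), Mrpl44 (694 bp), Mrps17 (662 bp), Mrps18a (797 bp) and Mrps31 (633 bp). Cytosolic ribosomal proteins had 1 narrow promoter of 66, Rpl6 (678 bp), with a median of 1169 bp. Complex I had 1 of 34, Ndufc2 (610 bp), and the proteasome none of 36. These are families of broadly used genes, read against 4.97% over all genes, and the differences between them were not tested.

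Zinc finger genes named Zfp had narrow promoters in 28 of 307 cases (9.12%), from 577 bp at Zfp449 to 797 bp at Zfp605, with a median over the family of 1155 bp. Genes named Slc for solute carriers had 14 of 211 (6.64%), among them the cystine transporter Slc7a11 (665 bp) and the creatine transporter Slc6a8 (668 bp). Rab GTPases had 1 of 56, and histone genes and cytochromes P450 none of 24 and 22. Families that are silent in most tissues had few promoter peaks in all. Of 5 chemoreceptor genes with one, 4 were narrow, namely Olfr368 (565 bp), Olfr545 (590 bp), Olfr9 (633 bp) and Olfr658 (705 bp). The windows of Olfr368 and Olfr545 were 85.2% and 63.0% multi-copy and that of Olfr9 was multi-copy throughout, so reads there may have come from a near-identical copy. Of 5 keratins 2 were narrow, Krt13 (625 bp) and Krt222 (713 bp). Hox genes had 1 of 11, Hoxd4 (691 bp), whose peak lay 761 bp upstream of the TSS.

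A further 12 families, the Armcx genes above among them, were examined because their members stood out, so their counts are descriptions only. Over all genes with a coding promoter peak the share was 4.97%. Neuronal adhesion genes were among them, with 2 of 3 Slitrk genes (Slitrk1 at 588 bp and Slitrk2 at 766 bp) and 3 of 5 Cntnap genes (Cntnap3 at 694 bp, Cntnap5a at 767 bp and Cntnap5b at 672 bp). The Lsm and Snrp genes of the spliceosome had 4 of 21, and Trim genes 5 of 38. Ttc genes had 4 of 25, Vps genes 3 of 29 and Ccdc genes 5 of 77 (6.49%). Of families named for cilia, 1 of 15 Cfap genes, 1 of 9 intraflagellar transport genes (Ift22, 553 bp), 1 of 6 Bbs genes (Bbs5, 698 bp) and none of 7 axonemal dynein genes were narrow. Beside the share over all genes, such counts in families of this size say nothing particular about these cilia families. The medians of their widest promoter peaks were 1118, 1076, 995 and 907 bp, against 1339 bp over all genes, and these differences were not tested.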

How the data were processed

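ATAC-seq was performed by the authors on day 5 CPCs. They aligned reads to mm9 (bowtie2), filtered them (samtools), removed duplicates (Picard) and called peaks in each replicate (MACS14), according to their methods. Blacklisted peaks were removed and peaks overlapping between replicates were kept with bedtools. The deposited values are positions and TSS distances in bp, with no count, score or depth, so depth is unknown and no replicate error exists. Width therefore also reflects the caller and the depth of 1 replicate.

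The 26429 lines were reduced to distinct intervals. Sequence came from NCBIM37 (mm9) and gene models from GENCODE vM1. For 605 of 610 peaks the gene was matched. Shares were compared with Newcombe intervals (95%; 99.69% for 16 motifs), computed with Python 3.11.15, and tested on simulated data. Named genes were the 10 narrowest, those at the limit, list members, CpG extremes, TATA carriers in a list or family, and those with most peaks. Members, lists and motifs were chosen with earlier results of these data known.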

Additional observations from a re-analysis of the deposited data

How the results depend on the processing

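Of 85 alternative settings over 12 results, 71 kept the direction and the side of the interval or, for a count, stayed near it. These 71 include the settings for the count of motifs, judged by the count alone and not by which motifs differed. Among them are the reversed letters, which are a control, so a count near the main one there does not show stability. The count of motifs that differed went from 3 to 2 in CpG-rich windows, to 2 in the rest, to 2 without multi-copy windows and to 4 with the letters reversed, and the motifs were not the same. RFX did not differ in CpG-rich windows (-0.600) or without multi-copy windows, and GATA did not in windows that were not CpG-rich. The number of narrow peaks was 245 at a limit of 700 bp and 1162 at 900 bp. The TATA difference, narrow minus other, was -0.204 points at 700 bp, -0.0740 at 900 bp and -0.311 in windows that were not CpG-rich. With only the widest promoter peak of each gene, the difference in second promoter peaks was -1.24 and in close neighbours 0.171 points, since that setting removes partners. The difference in genes with a peak away from the promoter excluded 0 at 900 bp (-4.40), with every line counted (-4.04) and with the widest peak per gene (-6.68), and was 0.165 against peaks of 800 to 1300 bp. The downstream share differed by -6.53 at 700 bp and 0.536 at 900 bp, and the multi-copy share by 1.57 at 700 bp, with an interval that included 0. The divergent difference was -3.02 against peaks of 800 to 1300 bp, that in second promoter peaks 3.55 among peaks covering an annotated TSS, and that in close neighbours 1.65 within 500 bp of the TSS and 5.41 at 700 bp. The cause of these shifts was not tested. The differences in CpG-rich share and X chromosome share kept their direction and excluded 0 under all settings run. No paired analysis was possible because a single group was measured, and neither replicate could be left out, since both share 1 list.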
